A study of Mus musculus with 8 samples.

Results

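The glutamate and GABA receptor genes of 8 mouse tumors are described here across the libraries. The members are the genes whose mm10 symbol begins with Gria, Grik, Grin or Grm and a digit, or with Gabr, together with the delta receptor genes, and 46 of the 49671 genes in the count table met this rule. They comprise 7 NMDA, 4 AMPA, 5 kainate, 2 delta and 8 metabotropic glutamate receptor genes, 19 GABA-A receptor genes, and Grin1os, a noncoding gene antisense to Grin1. All 8 tumors carry the genotype HprtCre; Ewsr1-loxP; Atf1-loxP, in which Cre made from the Hprt locus can join Ewsr1 to Atf1. They received no drug and were frozen at morbidity of the primary tumor, and total RNA was sequenced after removal of ribosomal RNA. The labels give 1 group, no control tissue and no age or body site. The tumors are called by the suffixes of their titles (1, 2L, 2R, 3, 4a, 4b, 5, 6); what a shared number stands for is not said, and none is stated to come from a separate animal.

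Glutamate opens the AMPA, kainate and NMDA receptors, which are cation channels built of several subunits, and it activates the metabotropic receptors, which couple to G proteins. GABA-A receptors are chloride channels assembled from alpha, beta and further subunits. Both systems are best known at synapses, but glutamate receptors also matter in pigment cells, since GRIN2A is often mutated in human melanoma. Human clear cell sarcoma, which carries the EWSR1-ATF1 fusion, shares melanocytic features with melanoma. ATF1 binds the cyclic AMP response element, a DNA motif whose core is TGACG.

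The promoter sequences bear on that motif, which was searched for in the 250 bases before and the 50 bases after each RefSeq start (build GRCm38.p6, the assembly of mm10). RefSeq gave 38 windows for 31 of the 46 members, and none for Grin2a, Grin3a, Gria3, Gria1 or Grm4. The full element TGACGTCA, its own reverse complement, was found in 0 of these windows and in 1.79% of all 32851 windows in the table. TGACG on either strand, which the full element also contains, was found in 6 member windows, belonging to Gabrb2, Gabrr1, Grik2, Grin1, Grin1os and Grm8, and in 20.8% of all windows. The 250 bases before the start are shown for 3 members whose windows overlap no annotated exon. Gabra2 and Grik3 are members of high level in some tumors, and Grin1 is a member with hardly any counts. Capitals mark TGACG or its reverse complement CGTCA.
Gabra2, chr5:71095850-71096099, minus strand: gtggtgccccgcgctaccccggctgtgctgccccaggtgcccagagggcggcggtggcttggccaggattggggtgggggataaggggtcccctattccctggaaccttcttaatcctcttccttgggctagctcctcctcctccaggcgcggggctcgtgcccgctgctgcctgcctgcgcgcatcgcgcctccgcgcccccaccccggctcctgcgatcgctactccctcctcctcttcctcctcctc
Grik3, chr4:125490446-125490695, plus strand: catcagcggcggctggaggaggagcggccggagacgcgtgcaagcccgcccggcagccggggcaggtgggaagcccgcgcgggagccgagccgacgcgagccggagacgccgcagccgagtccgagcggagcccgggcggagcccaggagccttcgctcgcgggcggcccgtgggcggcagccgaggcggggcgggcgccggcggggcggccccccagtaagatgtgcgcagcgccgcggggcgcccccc
Grin1, chr2:25319188-25319437, minus strand: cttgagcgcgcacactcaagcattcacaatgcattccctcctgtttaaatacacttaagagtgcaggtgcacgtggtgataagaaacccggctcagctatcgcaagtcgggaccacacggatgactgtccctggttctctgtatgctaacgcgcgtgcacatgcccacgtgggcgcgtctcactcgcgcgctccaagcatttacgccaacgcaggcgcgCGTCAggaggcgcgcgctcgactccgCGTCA
The Grin1 window holds the motif 2 times, close to the start. The Gabra2 and Grik3 windows hold none, although G and C make up 70.0% of the Gabra2 window and 82.0% of the Grik3 window, against 58.8% of the Grin1 window. Grm8, with a mean of 116 CPM, holds the motif in a window not shown, so the 3 members shown give no rule between motif and level. A match is a run of letters and does not show binding.

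The libraries held between 4817902 counts (tumor 3) and 19682149 counts (tumor 2L), of which the members took 1318 to 16144. Levels are given as CPM, the counts of a gene relative to an effective library size. That size is the counts of genes that passed a low-count filter times the TMM factor, a scaling between libraries. The factor of tumor 3 was 0.394 and those of the other libraries lay between 0.830 and 1.36, so the CPM of tumor 3 depend on it most. Where a gene had 0 counts, up to 3 remain possible; 3 counts make 1.60 CPM in tumor 3 and 0.467 CPM or less in the others (counting error only). Ewsr1 stood at 88.8 ± 25.1 CPM and Atf1 at 27.0 ± 4.25 CPM (SD, n = 8), and counts per gene do not separate the fusion from the intact alleles. Of 6 melanocyte markers, Tyr, Tyrp1 and Mlana had no count, whereas Mitf, the melanocyte master regulator, stood at 30.3 to 130.5 CPM and Dct at 0 to 74.0 CPM. Mitf and Dct were highest in tumor 3, where library size only would give 51.4 and 29.2 CPM, no longer the highest values. The Schwann cell regulator Sox10 did not exceed 0.235 CPM.

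A mean of at least 1 CPM was reached by 24 of the 45 protein-coding members (53.3%), against 63.1% of all 21734 protein-coding genes. A mean of at least 5 CPM was reached by 13 (28.9%), against 51.6%. Gabra6 and Gabrp had no count in any library (2 of 45, against 18.3% of protein-coding genes), which over all libraries together allows up to 0.0257 CPM each. Per kilobase of exon, the members of highest mean level were Grin2a at 12.8, Grm8 at 11.8 and Gabra2 at 9.23 CPM per kilobase. Grin3a followed at 5.15, Grik5 at 3.76 and Gria3 at 3.51 CPM per kilobase. The median over the 13 members was 2.51, against 5.72 CPM per kilobase for protein-coding genes with the same minimum mean. By family, a mean of at least 1 CPM was reached by 4 of 7 NMDA, 3 of 4 AMPA, 4 of 5 kainate, 1 of 2 delta, 2 of 8 metabotropic and 10 of 19 GABA-A genes.

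Grin2a led the NMDA receptor genes. It encodes a subunit that binds glutamate (ENSMUSG00000059003, mm10 chromosome 16, 9567898 to 9995560, minus strand). From high to low, its level was 366 CPM in 3, 365 in 4a, 345 in 4b, 275 in 6, 196 in 1, 137 in 2L, 121 in 5 and 36.0 in 2R. Tumor 2R stood lowest, and 3, 4a and 4b lay close together at the top. Scaled by library size only, tumor 3 would stand at 144 CPM and 4a at 487 CPM, so the place of tumor 3 in this order depends on its TMM factor.

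Grin1 encodes the subunit that every conventional NMDA receptor needs, and it was singled out after its values were seen. Its counts were 12 in tumor 1, 9 in 6, 8 in 2L, 5 in each of 4a and 4b, 3 in 2R, and 0 in both 3 and 5, so it never exceeded 1.07 CPM. Over all libraries together there were 42 counts of Grin1 and 27929 of Grin2a, which had no fewer than 231 in any library. With counts summed over the 8 libraries and divided by exon length, Grin2a stood 359.7-fold above Grin1 (exact 95% interval 266 to 499, counting error only). Exons of Grin1 share 13.5% of their bases with the antisense gene Grin1os, and strand handling is not stated, so some of these few counts may belong to Grin1os. Counts per gene do not show which part of the long Grin2a gene was read.

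Grin3a, a subunit that binds glycine and lowers calcium entry (ENSMUSG00000039579, chromosome 4, 49661611 to 49845744, minus strand), was concentrated in 1 tumor. Its levels were 398 CPM in 2R, 56.1 in 1, 19.71 in 3, 17.4 in 6, 7.68 in 2L, 3.25 in 4b, 3.02 in 4a and 1.05 in 5. The mean of 63.3 CPM rests on 2R and was 15.9 CPM without it. In 2R, Grin3a held 81.1% of the NMDA family level per kilobase and Grin2a 5.02%. In the other tumors Grin3a held 0.933% to 21.4% and Grin2a 51.1% to 92.8%.

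Of the remaining NMDA genes, Grin2c, a subunit known from the cerebellum, ranged from 0.285 CPM in 6 to 22.7 CPM in 1 with a median of 5.93 CPM, and stood at 19.8 CPM in 2R. Grin2d, a subunit of the embryonic brain, ranged from 3.73 CPM in 3 through a median of 7.24 CPM to 10.6 CPM in 2R. The value in tumor 3 rests on 7 counts. With library size only, Grin2d ranged from 1.47 CPM in 3 to 12.2 CPM in 4b. Exons of Grin2d share 9.66% of their bases with a gene on the opposite strand. Grin2b and Grin3b did not exceed 1.07 and 0.799 CPM.

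**Figure D1:**
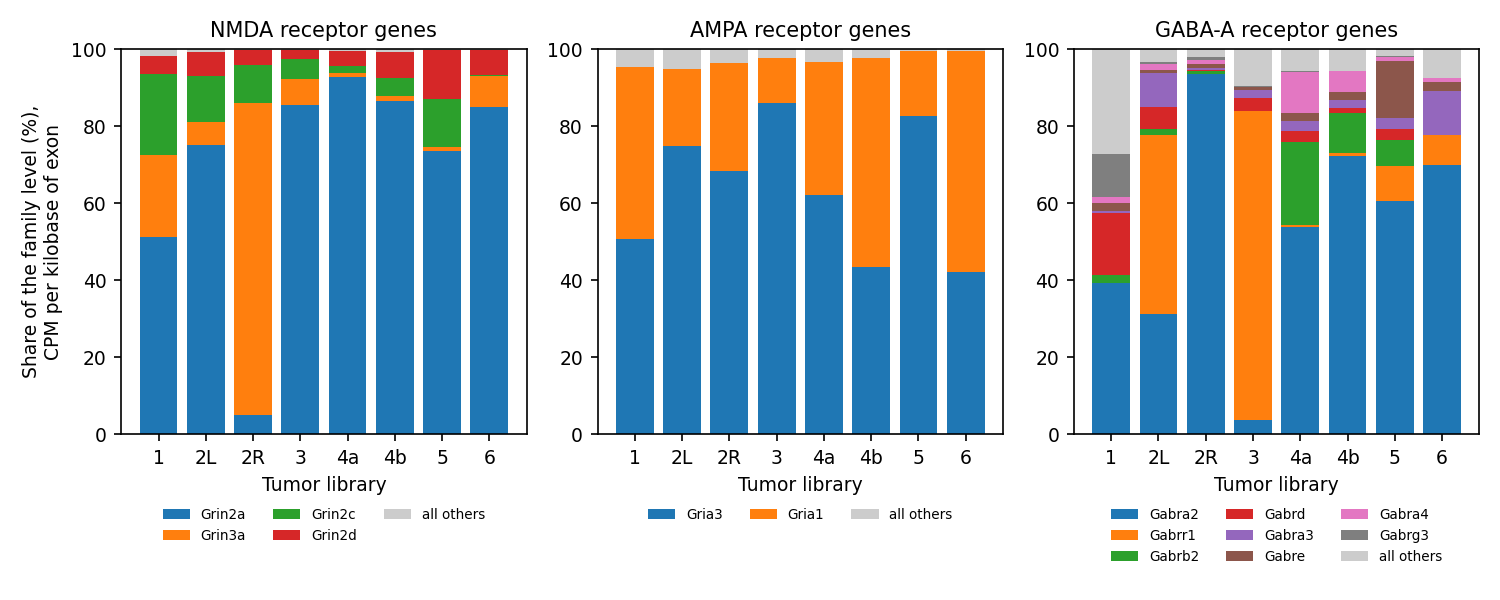
Share of each receptor family's level (CPM per kilobase of exon, stacked to 100%) held by its genes in the 8 tumor libraries, for NMDA, AMPA and GABA-A receptor genes; the remaining genes are pooled as all others. Grin3a takes 81.1% of the NMDA level in 2R, Gria3 and Gria1 nearly fill the AMPA bars, and the leading GABA-A gene is Gabrr1 in 2L and 3 but Gabra2 elsewhere.

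AMPA receptors carry fast excitatory currents in the brain. In the tumors their genes were represented by Gria3 and Gria1. Gria3 (ENSMUSG00000001986, chromosome X, 41400854 to 41678601, plus strand) had 74.9 CPM in 2R, 53.3 in 4b, 43.4 in 4a, 35.4 in 5, 30.6 in 1, 19.5 in 2L, 12.8 in 3 and 6.83 in 6. Gria1 had 40.96 CPM in 4b, 18.8 in 2R, 16.5 in 1, 14.7 in 4a, 5.69 in 6, 4.42 in 5, 3.17 in 2L and 1.07 in 3. Both were high in 2R and 4b, with Gria3 highest in 2R and Gria1 in 4b. Scaled by library size only, 4b was highest in Gria3 too, at 63.7 CPM against 62.2 CPM in 2R.

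Gria2, whose edited product keeps calcium out of AMPA channels, was again singled out after its values were seen. It did not exceed 4.26 CPM, reached in tumor 1, and had no count in 5 and 6. With summed counts per kilobase, Gria3 stood 43.7-fold above Gria2 (exact 95% interval 36.7 to 52.5) and Gria1 29.1-fold above it (24.3 to 35.1), counting error only. The counts were 3605 for Gria3, 1469 for Gria1 and 130 for Gria2. These ratios also rest on exon lengths of 9859, 6043 and 15548 bases, and the transcripts read are not known. Exons of Gria2 and Gria3 share 0.714% and 0.862% of their bases with other genes. Gria4 did not exceed 1.44 CPM.

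Kainate receptor genes were led by Grik5 and Grik4, whose products bind kainate tightly but need partners from the group of Grik1, Grik2 and Grik3 to form channels. Grik5 ranged from 9.61 CPM in 4a through a median of 18.2 CPM to 31.4 CPM in 3. Scaled by library size only, tumor 3 was instead lowest in Grik5 at 12.4 CPM, and tumor 1 highest at 32.8 CPM. Grik4 ranged from 4.67 CPM in 2R through a median of 15.0 CPM to 23.0 CPM in 4b. Their SD of log2 CPM, 0.65 and 0.79, were among the smaller of the 13 members.

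The partner genes were uneven. Grik3 (ENSMUSG00000001985, chromosome 4, 125490700 to 125714173, plus strand) had 35.0 CPM in 2R, 34.6 in 1, 21.3 in 3, 10.9 in 2L, 4.002 in 5, 2.36 in 4a, 0.529 in 4b and 0.163 in 6. Tumors 1, 2L, 2R and 3 thus lay above 4a, 4b, 5 and 6, a division noticed in the values and given no test. How many other genes divide the tumors in this way was not counted. Grik2 and Grik1 did not exceed 4.20 and 4.62 CPM. Of the delta receptor genes, whose products bind cerebellin proteins at synapses, Grid1 reached 4.23 CPM in 2L.

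Among metabotropic receptor genes, Grm8 and Grm4 alone reached a mean of 1 CPM. Both encode group III receptors, which lower cyclic AMP through inhibitory G proteins. Grm8 (ENSMUSG00000024211, chromosome 6, 27275119 to 28135178, minus strand) had 172 CPM in 5, 167 in 3, 151 in 4b, 144 in 6, 138 in 4a, 59.8 in 2R, 51.7 in 2L and 47.7 in 1. Tumors 1, 2L and 2R lay below the other 5 in these values, again a division noticed in the values and given no test. Scaled by library size only, tumor 3 stood at 65.7 CPM and 2L at 70.5 CPM, so tumor 3 then lay among the lower tumors.

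Grm4 ranged from 1.07 CPM in 3 through a median of 7.08 CPM to 26.4 CPM in 4b. Per kilobase, Grm8 held 61.4% to 99.0% of the metabotropic family level. Grm3, a receptor of group II, reached 4.47 CPM in tumor 6. Grm2, Grm5, Grm6 and Grm7 did not exceed 0.467 CPM.

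**Figure D2:**
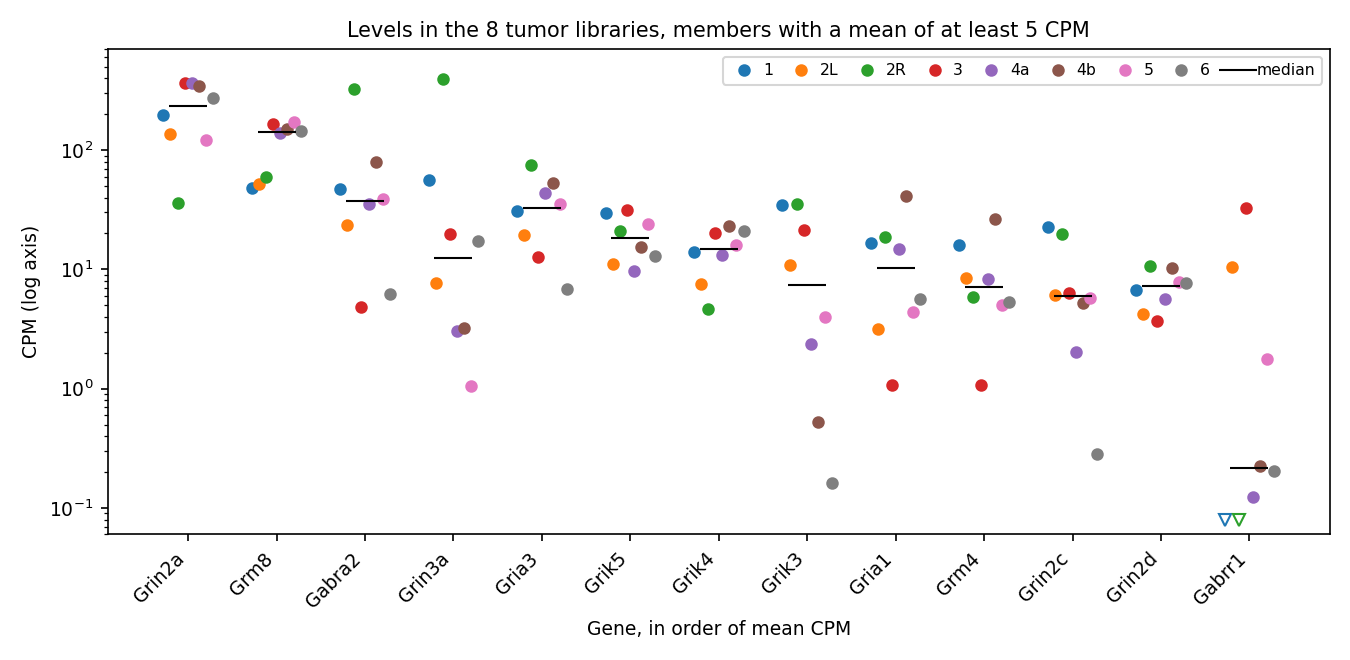
CPM on a log axis in the 8 tumor libraries (coloured points) for the 13 receptor genes with a mean of at least 5 CPM; the dash is the median and open triangles at the bottom mark libraries with 0 counts. Grin2d spans 3.73 to 10.6 CPM, whereas Grin3a spans 1.05 to 398 CPM and Gabrr1 runs up to 32.5 CPM from 0.

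Per kilobase, Gabra2 led the GABA-A receptor genes in 6 tumors and Gabrr1 in 2L and 3. Gabra2, an alpha subunit (ENSMUSG00000000560, chromosome 5, 70957597 to 71095849, minus strand), had 328 CPM in 2R, 79.6 in 4b, 47.6 in 1, 39.3 in 5, 35.2 in 4a, 23.5 in 2L, 6.26 in 6 and 4.79 in 3. The mean of 70.5 CPM was 34.7 CPM without 2R. Gabra2 held 93.6% of the family level per kilobase in 2R and 3.56% in 3.

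Tumor 2R also held the highest levels of Grin3a and Gria3, and among the marker lists the highest summed endothelial level, 1572 CPM against 370.4 to 1197 CPM elsewhere. Of this sum Kdr alone gave 1430.3 CPM, while Pecam1 and Cdh5 stood at 44.2 and 25.2 CPM in 2R, below their means of 88.4 and 66.0 CPM. Its summed fibroblast markers stood at 18342 CPM, of which Col1a2 gave 13483 CPM, but 4b was higher in this sum at 19865.5 CPM. The summed Schwann cell markers were highest in 2R too, at 442 CPM against 170.2 to 370.4 CPM elsewhere, and Pmp22 gave 423 CPM of them. Their part in the levels of these receptor genes was not tested. In bulk tumors fewer cells of a type cannot be told apart from less RNA per cell.

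Gabrr1, a rho subunit that forms channels on its own in the retina (ENSMUSG00000028280, chromosome 4, 33132521 to 33163588, plus strand), had 267 counts in 2L and 61 in 3. It had 17 counts in 5, 5 in 6, 3 in each of 4a and 4b, and none in 1 and 2R. Its CPM were 10.5 in 2L and 32.5 in 3, or 14.3 and 12.8 when scaled by library size only, and at most 1.79 in the other tumors. The mean of 5.66 CPM was 2.08 CPM without tumor 3. The 7 skeletal muscle markers summed to 20177 CPM in 2L, 6588 CPM in 3 and 14.0 to 117 CPM elsewhere, and the keratinocyte markers to 854 CPM in 2L, 301 CPM in 3, 685 CPM in 5 and 1.22 to 75.0 CPM elsewhere. Their part in the Gabrr1 level was not tested.

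Among the members under a mean of 5 CPM, Gabrg3 and Gabrb2 reached large single values. Gabrg3, a gamma subunit, was highest in tumor 1 (21.1 CPM, against 4.52 CPM or less in the other 7). It lies in a cluster on chromosome 7 with Gabra5, which had at most 5 counts in a library.

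Gabrb2, a beta subunit common in the adult brain, was highest in 4a and 4b, at 11.7 and 9.60 CPM, with at most 3.58 CPM in the other tumors. In the cluster on chromosome 5, Gabra4 stood at 5.47 CPM in 4a and 4.69 CPM in 4b and Gabrb1 at 2.44 and 5.44 CPM, with at most 3.11 and 0.934 CPM elsewhere. Exons of Gabra4 and Gabrb1 overlap on opposite strands by 46 bases. Gabrd, a subunit of receptors outside synapses, was highest in tumor 1 at 7.37 CPM and Gabre in tumor 5 at 6.003 CPM. Gabra4, Gabrb1, Gabrd and Gabre were named after their values were seen.

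Some genes lying side by side stood at unlike mean levels, and 1 pair at like mean levels is given below. Of the 19 GABA-A genes, 16 lie within 2 Mb of another in 5 clusters. On chromosome 5, Gabra2 averaged 9.23 CPM per kilobase, beside Gabra4 at 0.335, Gabrb1 at 0.0868 and Gabrg1 at 0.0111 CPM per kilobase. On chromosome 11, Gabrb2 averaged 0.595 CPM per kilobase, whereas Gabra6 had no count. On the X chromosome, the neighbors Gabre and Gabra3 averaged 0.336 and 0.320 CPM per kilobase, beside Gabrq at 0.000915. Gabre and Gabra3 peaked in different tumors, Gabre in 5 at 6.003 CPM and Gabra3 in 2L at 3.45 CPM.

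Tumor 1, with the highest Gabrg3 and Gabrd, also held the highest summed neuron markers (362 CPM, against 62.9 to 204 CPM elsewhere) and neuroendocrine markers (358 CPM, against 3.45 to 214 CPM). Of 12 neuron markers 9 reached a mean of 1 CPM, led by Map2 at 92.6 CPM, and 0 were without any count. The largest parts of the neuron sum of tumor 1 were Stmn2 (161 CPM), Map2 (88.2), Tubb3 (47.1) and Snap25 (26.8). Among these genes, Stmn2 and Snap25 peaked in tumor 1, whereas Map2 peaked in 4b (149 CPM) and Tubb3 in 6 (48.6 CPM). The neuronal nuclear protein gene Rbfox3 did not exceed 2.66 CPM, and the neurofilament genes Nefl and Nefm not 0.779 CPM. Of 5 astrocyte markers 3 reached a mean of 1 CPM, Gja1 at 51.7, Aldh1l1 at 21.4 and Aldoc at 6.58 CPM, and the defining genes Gfap and Aqp4 did not exceed 0.151 and 0.235 CPM. The part of such markers in the receptor levels was not tested.

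To ask whether levels differed among the 6 title numbers, the quasi-likelihood F-test of edgeR was run over all 11505 genes that passed the filter, with the spread taken from the pairs 2L with 2R and 4a with 4b. The filter required 0.920 CPM in every library, there computed from all counts of the library without the TMM factor, and 8 of the 45 protein-coding members passed (17.8%, against 50.7% of protein-coding genes): Grin2a, Grm8, Gabra2, Grin3a, Gria3, Grik5, Grik4 and Grin2d. Members high in some tumors and low in others, such as Gria1 and Grik3, were therefore not tested. Gria1 and Grm4 had 2 counts each in tumor 3, too few for the filter.

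None of the 8 was called (0 of 8, against 0% of all genes tested; smallest adjusted p of a member = 0.118, edgeR, for Grm8). At an unadjusted p under 0.05 stood 1 of 8 members, Grm8, against 24.5% of all genes. DESeq2's likelihood ratio test called Grin2a, Gria3 and Grm8, 3 of 8, against 20.7% of all genes, with adjusted p of 0.0466, 0.0479 and 0.000777. Without 2L or without 2R, when 4a with 4b alone gave the spread, edgeR called 6 of 8 members, against 38.7% and 39.3% of all genes.

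The pairs that share a title number were compared as 1 library over 1, with no test of the conditions; intervals are exact 95% intervals for counting error only. Of the 13 members with a mean of at least 5 CPM in 2L and 2R, 9 differed at least 2-fold (69.2%, against 20.4% of 11474 genes). Gabrr1 reached that minimum only through 2L, with 0 counts in 2R, so its difference is part of its choice. Gria1 and Grin2d, at 3.17 and 4.23 CPM in 2L, reached it only through 2R, at 18.8 and 10.6 CPM. Their differences are likewise part of their choice. Genes were not matched by level in either pair. Higher in 2L were 2 members, Grin2a and Gabrr1, against 12.1% of all genes, and lower in 2L were 7, against 8.28%. Scaled by library size only, 4 were higher in 2L (Grik4 and Grm4 added), against 31.9% of all genes, and 4 were lower (without Grik3, Grin2c and Grin2d), against 2.99%. That scaling put the median of all genes at 0.71 on the log2 scale, against 0.00060 with TMM. Grin3a stood at 7.68 CPM in 2L and 398 CPM in 2R, a log2 ratio of -5.67 (-5.91 to -5.49). Gabra2 stood at 23.5 CPM in 2L and 328 CPM in 2R, a log2 ratio of -3.79 (-3.94 to -3.67). These were the members furthest below 2R in 2L.

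Grin2a stood at 137 CPM in 2L and 36.0 CPM in 2R, a log2 ratio of 1.93 (1.74 to 2.13), and so differed in the opposite direction to Grin3a. Gabrr1 had 0 counts in 2R, and its level in 2L was 22.4-fold that of 3 counts in 2R. The lower end of its exact interval was 4.18 on the log2 scale. Gria1, Gria3, Grin2c, Grik3 and Grin2d had log2 ratios of -2.52, -1.94, -1.68, -1.67 and -1.30. Grm8 had a log2 ratio of -0.21, or 0.51 with library size only.

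Tumors 4a and 4b differed less. Of 11 members, 3 differed at least 2-fold (27.3%, against 4.52% of 10894 genes), all lower in 4a (against 2% of all genes) and 0 higher (against 2.52%). Gria1 stood at 14.7 CPM in 4a and 40.96 CPM in 4b, a log2 ratio of -1.47 (-1.68 to -1.28). Grm4 stood at 8.24 CPM in 4a and 26.4 CPM in 4b, a log2 ratio of -1.66 (-1.94 to -1.42). Gabra2 had a log2 ratio of -1.17, whereas Grin2a, at 365 CPM in 4a and 345 CPM in 4b, differed by 0.08 (0.03 to 0.13).

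**Figure D3:**
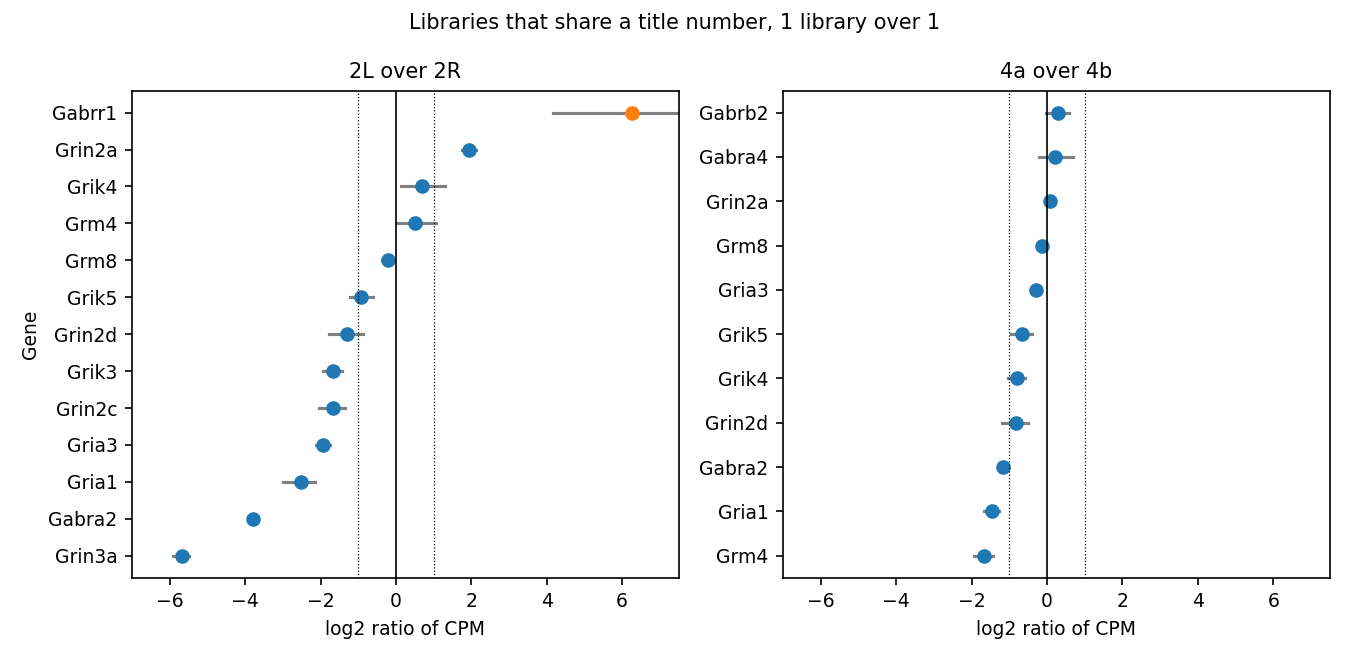
Log2 ratio of CPM, 1 library over 1, for 2L over 2R (left) and 4a over 4b (right), for receptor genes with a mean of at least 5 CPM in the pair; bars are exact 95% intervals for counting error and dotted lines mark a 2-fold difference. Grin3a lies at -5.67 and Grin2a at 1.93 in 2L over 2R, while Grin2a and Grm8 lie near 0 in 4a over 4b. The orange point, Gabrr1, has 0 counts in 2R and an open upper bound.

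The SD of log2 CPM over the 8 libraries had a median of 1.32 among the 13 members of at least 5 CPM, against 0.52 among 11222 protein-coding genes of at least 5 CPM. Gabrr1, Grin3a and Grik3 lay above the 98th percentile of those genes, with SD of 2.98, 2.67 and 2.60. Gabrr1 reached the minimum of 5 CPM only through tumor 3, so a high spread is part of its choice. Genes were not matched by level. Grin2d, at 0.54, lay at the 51.6th percentile.

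Other genes of glutamate and GABA signaling were read from lists chosen with earlier results of these data known. In each of the 6 lists edgeR called 0 genes among the title numbers. For the counts that follow, DESeq2 called 20.7% of all genes tested, and 63.1% of protein-coding genes reached a mean of 1 CPM. Of 13 genes for making, releasing and taking up glutamate 8 reached a mean of 1 CPM, and DESeq2 called 2 of the 4 tested. Glud1 and Glul, enzymes that interconvert glutamate with ketoglutarate or glutamine, averaged 141 and 130.3 CPM, and the glutamate transporter Slc1a3 22.4 CPM. The vesicular glutamate transporters Slc17a6, Slc17a7 and Slc17a8, which load synaptic vesicles, did not exceed 1.42 CPM.

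Of 9 genes for making, releasing and taking up GABA 5 reached a mean of 1 CPM, and DESeq2 called 2 of the 3 tested. Gad2, which makes GABA from glutamate, had 364 CPM in 6, 156 in 1, 93.0 in 2R, 71.6 in 4a, 58.0 in 2L, 56.8 in 4b, 29.3 in 5 and 17.6 in 3. Tumor 6 was highest in Gad2 and lowest in summed GABA-A receptor genes, at 7.68 CPM. Its companion enzyme gene Gad1 averaged 3.06 CPM, the GABA-degrading enzyme genes Abat and Aldh5a1 9.62 and 4.36 CPM, and the vesicular GABA transporter gene Slc32a1 did not exceed 0.467 CPM.

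GABA-B receptors, which pair the products of Gabbr1 and Gabbr2, lie outside the symbol rule. Gabbr2 was present in every tumor, from 77.3 CPM in 5 to 240 CPM in 6, with a mean of 139.9 CPM. Gabbr1 ranged from 8.29 CPM in 6 to 112 CPM in 3, with a mean of 33.1 CPM. With library size only, Gabbr1 stood at 44.3 CPM in 3 and 37.7 CPM in 5. In the same list, of which DESeq2 called 1 of 3 tested (Gabbr1), the chloride importer Slc12a2 averaged 82.1 CPM and the glycine receptor gene Glrb 6.59 CPM (35.9 CPM in 2L), while the exporter Slc12a5 averaged 1.03 CPM. Glycine receptor alpha genes were at or near 0 except Glra3, at 1.07 CPM in tumor 1.

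Of 14 auxiliary subunits of AMPA and kainate receptors 9 reached a mean of 1 CPM and DESeq2 called 4 of 5 tested. They were led by Cpt1c at 31.8, Shisa6 at 28.7 (105 CPM in tumor 3), Neto2 at 16.2 and Cacng4 at 14.1 CPM. With library size only, Shisa6 stood at 41.5 CPM in tumor 3 and was highest in 2L at 42.2 CPM. Of 24 scaffolds and ligands of glutamate receptors 21 reached a mean of 1 CPM, and DESeq2 called 3 of 14 tested, a share near that of all genes. They were led by Dlgap1 at 133, Dlg1 at 108, Nptxr at 55.2 and Homer2 at 45.9 CPM. Homer2, which links metabotropic receptors to the cell interior, stood at 139.7 CPM in 5 and 137 CPM in 2L, with 34.1 CPM or less in the others. Of 10 scaffolds and partners of GABA-A receptors 9 reached a mean of 1 CPM and DESeq2 called 1 of 9 tested. Highest were Gabarap at 161, Clptm1 at 75.4, Plcl2 at 71.5 and Nlgn2 at 59.2 CPM. Many of these genes also serve other functions in cells without synapses.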

How the data were processed

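RNA of 8 tumors was measured by sequencing of total RNA. The authors deposited 1 table of raw counts per Ensembl gene, whole numbers in 8 columns. The tools named per the submitters' processing notes are RSEM, featureCounts, STAR (2.7.5a) and cutadapt, with build mm10; their order and the strand setting are not given in the sources used here. GENCODE M21 (mm10) named 49326 of 49671 identifiers (99.31%) and gave exon lengths, as the union over transcripts. The analysis ran in R (4.3.3) and used edgeR (4.0.16): filterByExpr for 1 group (minimum count 10), TMM scaling, a prior count of 2 for log2 CPM, and a quasi-likelihood F-test over the 6 title numbers (2 residual degrees of freedom), adjusted after Benjamini and Hochberg at 0.05. DESeq2 1.42.0 was an alternative. P-values measure only the spread between these libraries, which may be technical. Promoters are from RefSeq (GRCm38.p6).

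The members and gene lists were chosen with earlier results of these data known. Members with a mean of at least 5 CPM were described by library, the others by range and by the 3 of largest single value, and each signaling list by its 4 genes of highest mean. Genes named outside this rule were chosen after their values were seen, and some genes that the rule names are not reported here. Alternatives changed the test, scaling, filter, prior count, features counted and libraries.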

Additional observations from a re-analysis of the deposited data

Results flagged for a closer look

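The level of 4 of the 13 receptor genes with a mean of at least 5 CPM had 1 library set far apart from the other 7, by Dixon's gap over range on the CPM scale (above the 95% critical value for 8 samples). Chance gives such a gap in about 1 in 20 groups of normally distributed values, a shape that these CPM need not have. On the log2 scale, which was tried first, 0 of the 13 had such a gap. The CPM scale, on which levels are reported, was chosen after that result was seen. Grin3a stood at 398 CPM in 2R with 56.1 CPM as the next value, a gap of 0.861 of the range. Gabra2 stood at 328 CPM in 2R with 79.6 CPM as the next value, a gap of 0.768. Gabrr1 stood at 32.5 CPM in 3 with 10.5 CPM as the next value, a gap of 0.678, and its highest library became 2L when scaled by library size only. The mean of Gabrr1 passed 5 CPM only through tumor 3 (2.08 CPM without it), so a gap is part of its choice. Gria1 stood at 40.96 CPM in 4b with 18.8 CPM as the next value, a gap of 0.554.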

How the results depend on the processing

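The number of members called among the title numbers was 0 with edgeR, and also 0 with median-of-ratios size factors, with a filter at a mean of 1 CPM and with nuclear protein-coding genes only. It was 3 with DESeq2 (2383 genes called in all), 5 with library size only (3791 in all) and 25 with no filter (6260 in all). Leaving out 1 library gave 0 to 6 members and 0 to 4548 genes, above 0 without 2L or 2R. The cause was not tested, although without 2L or 2R only 4a with 4b measures the spread. The number of members at a mean of 1 CPM was 24, and 21 to 26 under every alternative run. Mean CPM moved by less than 1 SD in all alternatives but 1: with nuclear protein-coding genes only, 5 of 13 means were higher by more than 1 SD, since their CPM are scaled to fewer counts. Leaving out 1 library can hardly move a mean by 1 SD whatever the values, so this criterion cannot show dependence on a library. Without 2R, the mean of Grin3a fell from 63.3 to 15.9 CPM and that of Gabra2 from 70.5 to 34.7 CPM. Without tumor 3, the mean of Gabrr1 fell from 5.66 to 2.08 CPM. Of 26 log2 ratios within pairs, 16 moved beyond their counting interval with library size only and 0 with another prior count. None of at least 2-fold changed sign, but Grm8 did in both pairs (0.51 and 0.03 with library size only, against -0.21 and -0.13), as did Grin3a in 4a over 4b (0.05, against -0.10). No paired analysis was possible because the labels give 1 group. Tumor 3 has the fewest counts and the least certain levels.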
